A study of Homo sapiens with 6 samples.

Results

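The members of the miR-23, miR-27, miR-24 and miR-26 families were followed in exosomes shed by HCT116, an established human line derived from a colorectal carcinoma. They were picked by name, as the 7 of 2588 mature miRNA entries called hsa-miR-23a-3p, hsa-miR-23b-3p, hsa-miR-27a-3p, hsa-miR-27b-3p, hsa-miR-24-3p, hsa-miR-26a-5p and hsa-miR-26b-5p. Cells of 1 group had received a control siRNA (siCTL, n = 3 libraries) and cells of the other an siRNA against PRDX3 (siPRDX3, n = 3). The siRNAs were delivered by microporation, with 40 h given for the transfection. All were then kept for 24 h in medium with 10% nanoparticle-free serum, and their exosomes were collected with a commercial kit. A closing sentence of the design text names another siRNA and endothelial cells. The titles and the cell line of every sample go against it and were followed. No label ties the libraries of a group to separate cultures, so the spread on which p-values rest may be technical.

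A miRNA guides the silencing complex to messenger RNAs that pair with its seed, bases 2 to 8 from its 5′ end, and lowers their translation and stability. miR-23, miR-27 and miR-24 are made together from a shared precursor transcript, of which the genome holds a pair of copies, while the miR-26 hairpins lie within genes of the CTDSP phosphatase family. miR-23a, miR-23b and miR-26a have been described as acting on the messenger of PRDX3, a peroxidase of the mitochondrion that clears hydrogen peroxide. The comparison asked how much of these miRNAs exosomes carry with and without depletion of PRDX3. The libraries hold no messenger RNA, so the PRDX3 transcript could not be used to check the depletion or the labels.

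The mature sequences are shown because the family members are nearly identical outside the seed, which bears on how reads were divided between entries. They come from RefSeq (GRCh38.p14), in which all 7 names matched, and the seed is in capitals.
miR-23a-3p: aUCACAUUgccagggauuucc
miR-23b-3p: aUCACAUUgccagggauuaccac
miR-27a-3p: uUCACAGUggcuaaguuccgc
miR-27b-3p: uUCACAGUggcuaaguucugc
miR-24-3p: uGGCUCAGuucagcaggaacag
miR-26a-5p: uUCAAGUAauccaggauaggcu
miR-26b-5p: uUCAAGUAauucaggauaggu

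The 7 entries carry 4 seeds. Over their first 21 bases, miR-23a-3p and miR-23b-3p differ at 1 position (U19A, first-named miRNA first, counted from the 5′ end), and miR-23b-3p is 2 bases longer. miR-27a-3p and miR-27b-3p differ at 1 position (C19U). miR-26a-5p and miR-26b-5p differ at 2 of 21 compared positions (C11U and C21U). How the authors assigned a read that fits either member of such a pair is not given in the sources used here, so the split within each pair is uncertain.

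The hairpins lie at 9 places on GRCh38. MIR23A (chromosome 19, 13836587 to 13836659, minus strand), MIR27A (13836440 to 13836517) and MIR24-2 (13836287 to 13836359) fit within 373 bases and overlap an exon of the non-coding gene AC020916.1 in GENCODE v29. MIR23B (chromosome 9, 95085208 to 95085304, plus strand), MIR27B (95085445 to 95085541) and MIR24-1 (95086021 to 95086088) span 881 bases of C9orf3. The first pair lies in an intron there and MIR24-1 overlaps an exon. The miR-26 hairpins are intronic as well: MIR26A1 in CTDSPL (chromosome 3, 37969404 to 37969480, plus strand), MIR26A2 in CTDSP2 (chromosome 12, 57824609 to 57824692, minus strand) and MIR26B in CTDSP1 (chromosome 2, 218402646 to 218402722, plus strand). The sequence of miR-24-3p is the same from MIR24-1 and MIR24-2, and that of miR-26a-5p from MIR26A1 and MIR26A2, so the reads of these entries cannot be given to 1 locus.

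The deposited log2 values lie on whole multiples of 1 read in each library, from which reads were recovered. The libraries held between 40146 (siCTL 1) and 230946 (siPRDX3 1) miRNA reads, and 686 entries had a read in any library. siCTL 1, siCTL 2 and siPRDX3 2 had reads in the fewest entries (137, 190 and 215), against 272 to 356 in the other libraries. Shares below are percentages of a library's miRNA reads. Their exact (Clopper-Pearson) 95% intervals, like the limit that a count of 0 allows (3 reads of the total), cover counting error only, since PCR copies are not independent molecules. That limit runs from 0.0013% in siPRDX3 1 to 0.00747% in siCTL 1. Because exosomal RNA is a bulk sample, fewer vesicles that carry a miRNA and less of it per vesicle cannot be told apart.

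All 7 members had reads, 2158 of 644115 in all, and most of each member's reads came from a single library, which was not the same library for every member. The miR-23 pair and miR-27b-3p lay mostly in siPRDX3 1, while siCTL 3 held miR-27a-3p and miR-24-3p, and siPRDX3 3 held miR-26a-5p and miR-26b-5p. Summed over the 7 members, the siCTL libraries 1 to 3 gave 2, 0 and 256 reads and the siPRDX3 libraries 1 to 3 gave 1708, 11 and 181. The mean summed share was 0.0701% ± 0.117 for siCTL against 0.336% ± 0.371 for siPRDX3 (SD, n = 3 each), and the groups overlap. The difference of 0.266 percentage points became 0.0637 without siPRDX3 1 and 0.0792 without miR-23a-3p. A sum over chosen members has no test of its own here.

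**Figure D1:**
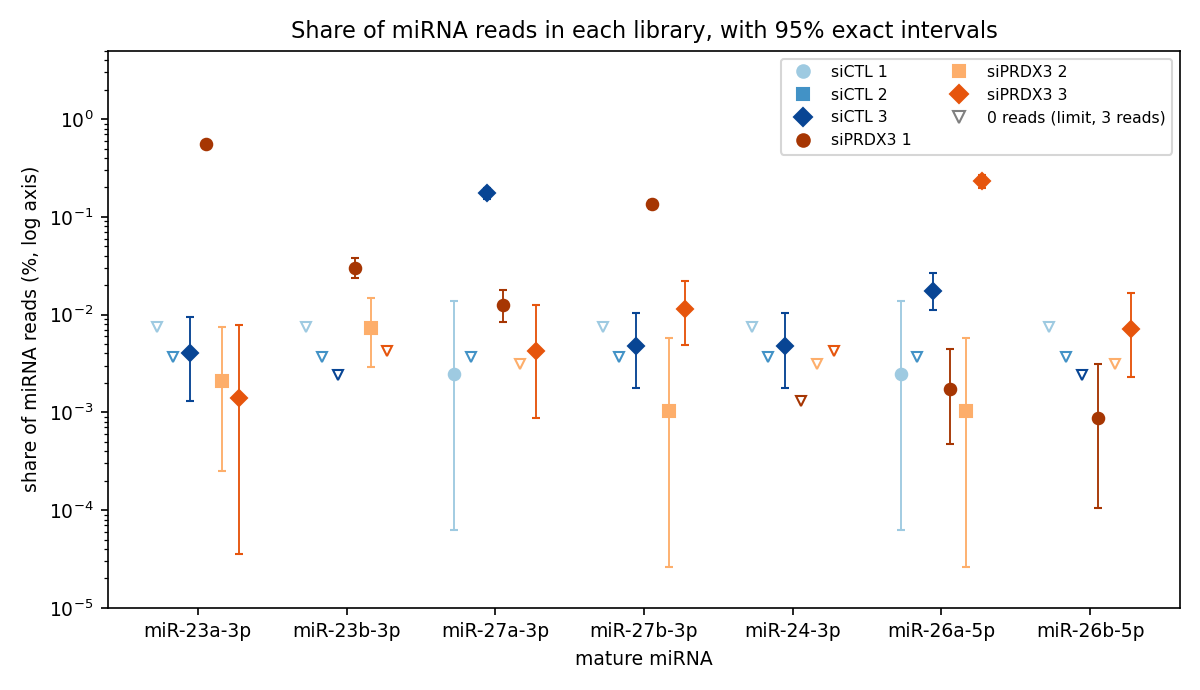
Share of miRNA reads (%, log axis) of each of the 7 miRNAs in each library; points are single libraries with 95% exact intervals, and open triangles mark the 3-read limit of libraries with 0 reads. The highest points are miR-23a-3p at 0.56% in siPRDX3 1, miR-26a-5p at 0.232% in siPRDX3 3 and miR-27a-3p at 0.174% in siCTL 3.

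miR-23a-3p, the most abundant of the 7, counted 0, 0 and 5 reads in the siCTL libraries (always in the order 1, 2, 3), against 1293, 2 and 1 in those of siPRDX3. It was high in siPRDX3 1 alone, and the other siPRDX3 libraries lay within the range of siCTL. In siPRDX3 1 it took 0.56% of reads (interval 0.53 to 0.591) and ranked 30 of 334 entries with reads. At that share siCTL 1, siPRDX3 2 and siPRDX3 3 would have held 225, 541 and 396 reads, where they had 0, 2 and 1.

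miR-23b-3p, its near-identical partner from chromosome 9, was at 0 in every siCTL library and counted 70, 7 and 0 reads in those of siPRDX3. The groups share the value 0, because siPRDX3 3 had no read either. With 77 of 398284 reads against a limit of 3 of 245831, its pooled share was at least 15.8-fold higher in siPRDX3. This bound rests on siPRDX3 1 and, like those below, takes the detected reads as counted, without their counting error. Without that library 7 reads remained, a share of 0.00418% beside the siCTL limit of 0.00122%. In siPRDX3 1, 94.9% (interval 93.6 to 96) of the reads of the miR-23 pair were assigned to miR-23a-3p.

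miR-27a-3p, a cluster mate of miR-23a known for roles in lipid metabolism and tumour growth, counted 1, 0 and 217 reads in the siCTL libraries, against 29, 0 and 3 in those of siPRDX3. It was high in siCTL 3, at 0.174% (interval 0.152 to 0.199), and every siPRDX3 library lay between the lowest and the highest siCTL library or level with the lowest. miR-27b-3p, the mate of miR-23b, counted 0, 0 and 6 reads against 310, 1 and 8, with 0.134% in siPRDX3 1 (interval 0.12 to 0.15). Its groups overlap through siPRDX3 2. The pair changed places between libraries: miR-27a-3p made up 97.3% of the pair's reads in siCTL 3 (interval 94.2 to 99) and 8.55% in siPRDX3 1 (5.8 to 12.1).

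miR-24-3p, encoded in both clusters and known as a regulator of the cell cycle, had 6 reads in siCTL 3 and 0 in each of the other 5 libraries. In siPRDX3 1, where miR-23a-3p had 1293 reads and miR-27b-3p 310, the absence of reads allows a share of up to 0.0013%. Over the groups, 6 of 245831 reads, taken as counted, against a limit of 3 of 398284 make it at least 3.24-fold lower in siPRDX3. The bound rests on siCTL 3, without which siCTL also had 0 reads.

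miR-26a-5p, a growth-restraining miRNA that targets EZH2, counted 1, 0 and 22 reads in the siCTL libraries, against 4, 1 and 164 in those of siPRDX3. It was high in siPRDX3 3, at 0.232% (interval 0.198 to 0.27), and siPRDX3 1 and siPRDX3 2 lay below the shares of siCTL 1 and siCTL 3. miR-26b-5p was at 0 in every siCTL library and counted 2, 0 and 5 reads in those of siPRDX3, the highest again in siPRDX3 3. With 7 reads, taken as counted, against the group limit its bound is at least 1.44-fold higher. With siPRDX3 3 left out its 2 reads fall under that limit. miR-26a-5p took 97% of the reads of the miR-26 pair in siPRDX3 3 (interval 93.2 to 99).

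**Figure D2:**
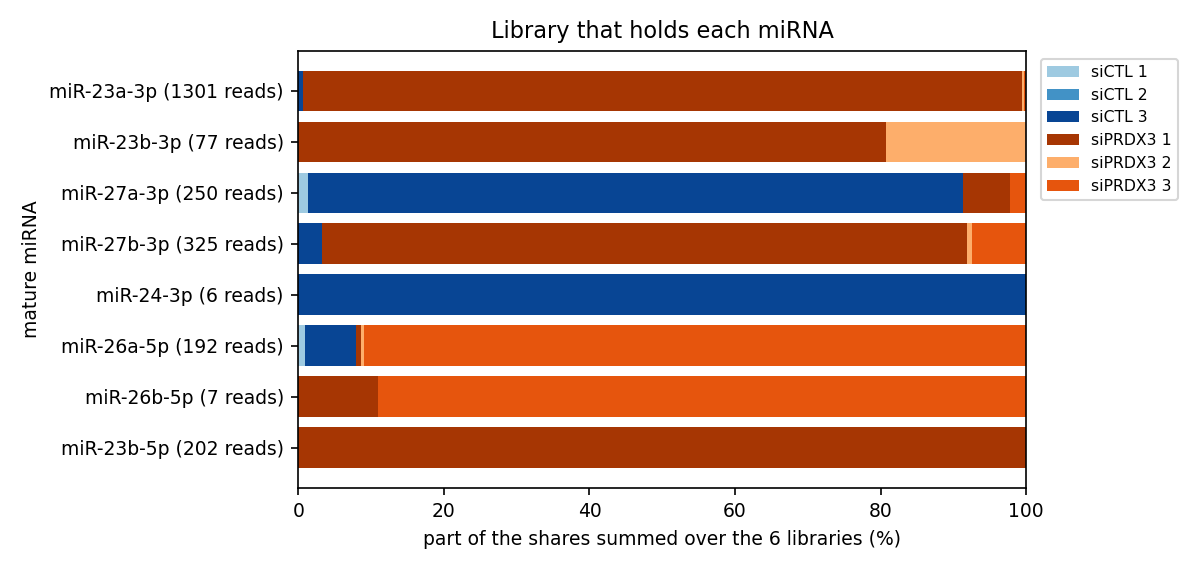
Each bar divides the shares of 1 miRNA, summed over the 6 libraries, by library (%); total reads stand beside the names, and miR-23b-5p is the opposite arm of miR-23b-3p. The largest block is siPRDX3 1 for miR-23a-3p (98.7%), siCTL 3 for miR-27a-3p (90%) and siPRDX3 3 for miR-26a-5p (91%).

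Mates of 1 precursor did not appear in a fixed proportion. For the chromosome 19 cluster, miR-23a-3p had 5 reads beside 217 of miR-27a-3p in siCTL 3, an interval of 0.735% to 5.18% for its part in their sum. In siPRDX3 1 it made up 97.8% of the sum (1293 against 29 reads, interval 96.9 to 98.5). These intervals do not overlap, so the ratio of the mates differed between the 2 libraries beyond counting error. For the chromosome 9 cluster only siPRDX3 1 gave enough reads for a proportion, and miR-23b-3p held 18.4% of the reads of miR-23b-3p and miR-27b-3p there (interval 14.7 to 22.7).

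A hairpin also yields an opposite arm, usually the less abundant strand. Of the 9 opposite arms of these hairpins, 2 had reads. miR-23b-5p had 202 reads in siPRDX3 1 and 0 in the other 5 libraries, and in siPRDX3 1 it outnumbered miR-23b-3p, with 74.3% of the reads of the 2 arms (interval 68.6 to 79.4). Its sequence is shown because it was more abundant than the arm that has been linked to PRDX3, again with the seed in capitals.
miR-23b-5p: uGGGUUCCuggcaugcugauuu

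The count of miR-23b-3p carries the uncertainty of its split from miR-23a-3p. The other arm, miR-26a-2-3p, had 1 read in siPRDX3 1. The 7 remaining arms, those of MIR23A and MIR27A among them, had 0 reads in every library. The entries that share a seed with a member, miR-23c, miR-1297 and miR-4465, were also at 0 throughout.

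**Figure D3:**
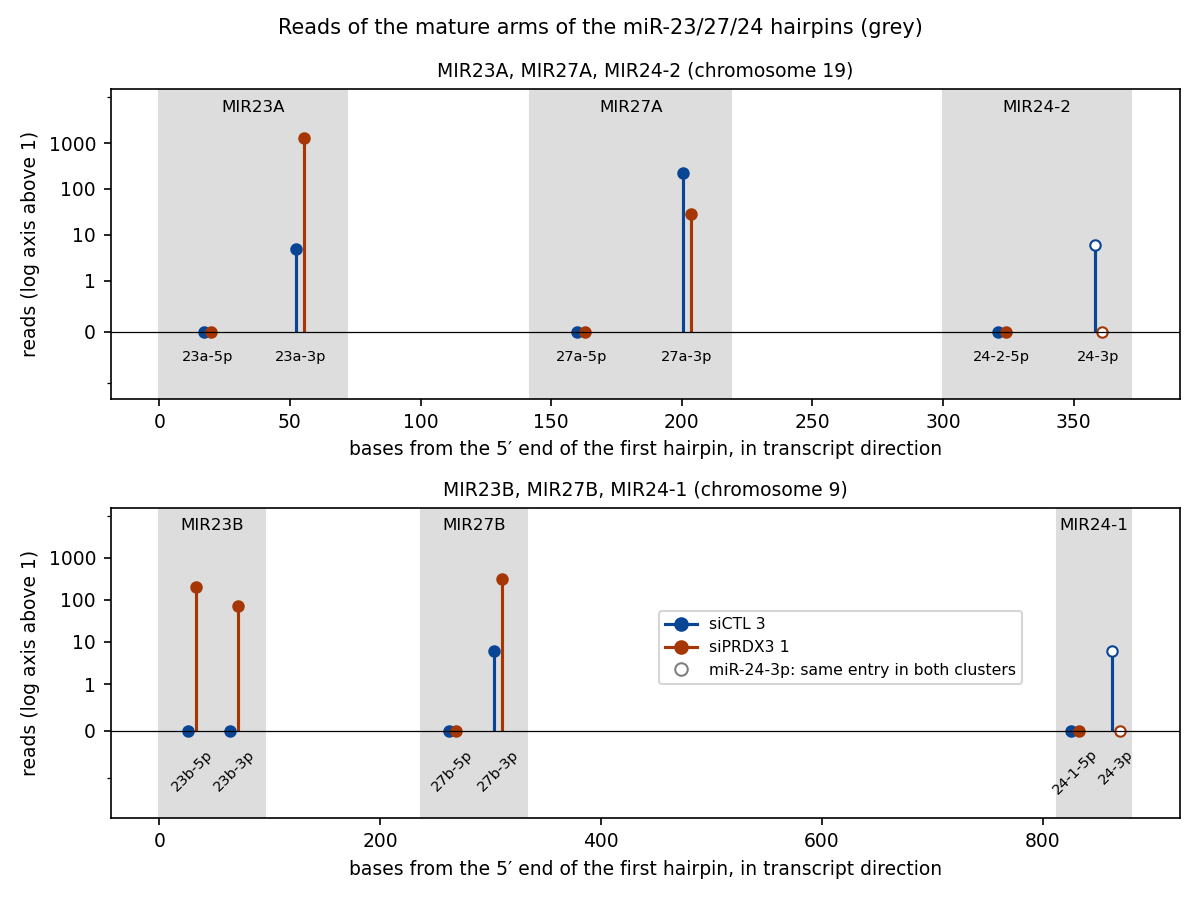
Reads (log axis above 1) of each mature arm of the chromosome 19 and chromosome 9 clusters in siCTL 3 (blue) and siPRDX3 1 (brown), placed by distance in bases from the first hairpin; grey marks hairpins, and open points are miR-24-3p, whose reads are drawn in both clusters. miR-23a-3p is higher in siPRDX3 1 (1293 against 5 reads) and its neighbour miR-27a-3p in siCTL 3 (217 against 29).

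For a test across miRNAs, an entry needed at least 3 libraries at 113 CPM and 15 reads in all. No member met this, since none reached that level in more than 2 libraries, so 0 of the 7 could be called. Of the 80 entries that did, 0 passed an adjusted p of 0.05 by limma (0%), with 6 at an unadjusted p under 0.05, against 1 by limma-voom. A fit over all 686 entries with reads gave values for the members, with 0 of 686 called (0%, 19 at an unadjusted p under 0.05). limma-voom over the same entries called 4 higher and 4 lower in siPRDX3, with 0 members among them. In the limma fit 0 of the 7 members passed, and 0 had an unadjusted p under 0.05. Their limma adjusted p-values lay between 0.562 and 0.742.

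Mean log2 levels (on the scale of log2(value + 1)) were 1.78 ± 3.09 in siCTL and 6.26 ± 4.92 in siPRDX3 for miR-23a-3p (SD, n = 3 each). Its difference, siPRDX3 minus siCTL, was 4.48 with SE 2.96 (limma adjusted p = 0.562). The difference was 4.34 with SE 2.96 for miR-27b-3p, −1.54 with SE 2.98 for miR-27a-3p and 1.55 for miR-26a-5p. None of the 4 was told apart from 0. With a pseudocount of 10 in place of 1, the differences of these 4 were 2.76, 2.48, −1.46 and 0.89 in the same order, so their size depends on the pseudocount. Of the 7 differences 5 lay above 0 and 2 below, against 50.9% above 0 over the 686 entries. The median was 2.64 for the members, or 1.55 with the 3 members at 0 in a whole group set to their bounds. It was 0.17 over all 686 entries, of which 222 had at least 15 reads, and 1.72 over the 80 tested entries. The bounds are ratios of pooled shares, while the other values are differences of mean log2 levels, and no member is among the 80. These medians are therefore given side by side only. On library totals in place of the deposited scaling, the differences were 5.15 for miR-23a-3p, 5.04 for miR-27b-3p, −1.01 for miR-27a-3p and 2.24 for miR-26a-5p. The deposited values summed to more in every siCTL library (994749 to 1616283 scaled units) than in every siPRDX3 library (474714 to 686860). The sizes also moved with the libraries that entered. Without siCTL 1 and siCTL 2, which leaves a single siCTL library, the difference was 0.91 for miR-23a-3p, 0.60 for miR-27b-3p, −7.14 for miR-27a-3p and, with its sign reversed, −1.86 for miR-26a-5p. Without siPRDX3 1 it was 1.65 for miR-23a-3p, 2.52 for miR-27b-3p and 2.83 for miR-23b-3p.

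The groups did not overlap for 0 of the 7 members, where 24 of the 686 entries with reads (3.5%) had groups that did not overlap. Entries held by 1 library were common in these data. For each entry with at least 15 reads, the shares were summed over the 6 libraries and the part in the highest library was taken. It was over 80% for all 5 members with that many reads, at 80.7% for miR-23b-3p, 88.7% for miR-27b-3p, 90% for miR-27a-3p, 91% for miR-26a-5p and 98.7% for miR-23a-3p. Among the other 217 entries 89 (41%) were over 80%. Among the 112 others whose reads lay within the members' range of 77 to 1301, 64 (57.1%) were. siPRDX3 1, the deepest library, was the highest for 40 of the 94 entries over 80%. siCTL 3 was so for 22, siCTL 2 and siPRDX3 3 for 12 each, siCTL 1 for 5 and siPRDX3 2 for 3. The part that depth has in this was not tested.

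**Figure D4:**
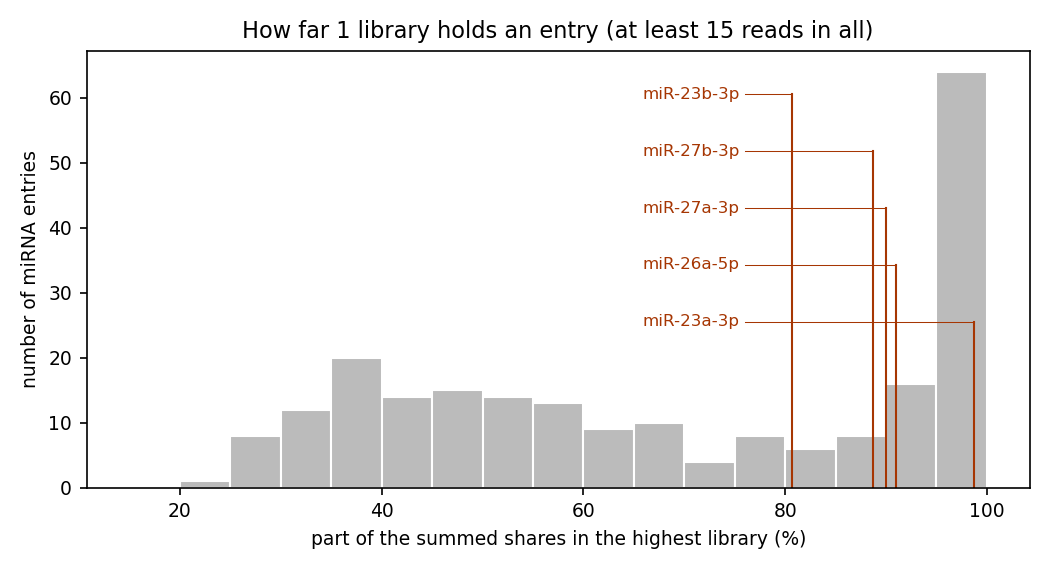
Number of miRNA entries with at least 15 reads (222 entries, grey bars) by the part of their summed shares that the highest library holds (%); vertical lines mark the 5 members with that many reads. The members lie between 80.7% and 98.7%, to the right of the median of 66.8% over all 222 entries.

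Markers of other cells were set beside the members, since several of the 7 are also found in blood and vessel cells. In siPRDX3 3, where miR-26a-5p was high, miR-146a-5p, known from leukocytes, had 287 reads and was at 0 in the other 5 libraries. The endothelial miR-126-3p had 154 reads there and 0 to 5 elsewhere. The other leukocyte entries with reads were at 0 in siPRDX3 3, as miR-155-5p had 1 read in siCTL 2 and 21 in siCTL 3, and miR-142-5p 11 in siPRDX3 1. As a list, leukocyte and platelet miRNAs (3 of 6 with reads) took 0% to 0.0168% in siCTL and 0% to 0.406% in siPRDX3, with miR-223-3p, miR-142-3p and miR-150-5p at 0 in every library. The endothelial list (1 of 2 with reads, miR-126-5p at 0) took 0% to 0.00401% and 0% to 0.218%. Their part in the miR-26a-5p level was not tested.

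Erythrocyte miRNAs (4 of 5 with reads, miR-144-3p at 0) ran from 4.15% to 5.58% in siCTL and from 1.09% to 3.54% in siPRDX3, lowest in siPRDX3 1, where miR-23a-3p was high. Liver miRNAs (2 of 2 with reads) ran from 0.0593% to 5.35% and from 2.44% to 9.63%. Fibroblast and smooth muscle miRNAs took at most 0.00707% of a library, with 1 of 4 detected, and miR-145-5p, miR-199a-3p and miR-214-3p at 0. The part of these lists in the members' levels was not tested. Epithelial and intestinal miRNAs, which mark the labelled cell type, had reads for 7 of 8 entries (miR-429 at 0). Their sums were 3, 4 and 1447 reads in the siCTL libraries, against 701, 11 and 202. The 3 libraries with most of them, siCTL 3, siPRDX3 1 and siPRDX3 3, are also the 3 with most reads of the 7 members. They had reads in the most entries of any kind as well. In siCTL 1, siCTL 2 and siPRDX3 2 both sums were at 11 reads or fewer. Single entries differed in siCTL 3, siPRDX3 1 and siPRDX3 3. There miR-200c-3p had 450, 253 and 190 reads, miR-215-5p 580, 2 and 0, and miR-200b-3p 1, 216 and 6. By share the list was higher in siCTL 3 than in siPRDX3 1 (1.16% against 0.304%), the members lower (0.205% against 0.74%). The part of this list in the members' levels was not tested.

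Entries most like each member were found by Pearson's r of log2 levels over the 6 libraries, given as a description without a test, since all points share the depth and composition of the same libraries. The closest to miR-23a-3p were miR-320d (r = 0.83), miR-92b-3p (0.83) and miR-182-5p (0.82). These had 592, 674 and 1727 reads in siCTL 3, where miR-23a-3p had 5. miR-27b-3p was closest to miR-744-5p (0.94), miR-3184-5p (0.93) and miR-92b-3p (0.90), and miR-27a-3p to miR-151a-3p (0.94), miR-28-3p (0.85) and let-7g-5p (0.80). miR-26a-5p was closest to miR-128-3p (0.81), miR-221-3p (0.80) and miR-4488 (0.78), and each of these, like it, had its highest share in siPRDX3 3. By read count miR-221-3p was highest in siCTL 3 (216, against 186 in siPRDX3 3). miR-23b-3p was closest to miR-99a-5p (0.74), miR-941 (0.70) and miR-1260b (0.68).

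Other miRNAs tied to PRDX3 or to redox control were taken from a list. miR-383-5p, which has also been described as acting on PRDX3, had 0 reads in every library. Of 15 redox and mitochondria miRNAs listed, 9 had reads, 3 were tested, 0 passed higher and 0 lower, and the median difference of the 3 was −0.89 against 1.72 over the 80 tested entries. miR-378a-3p, encoded within the mitochondrial regulator gene PPARGC1B, counted 0, 816 and 44 reads in the siCTL libraries and 67, 0 and 5 in those of siPRDX3. miR-21-5p, a common oncogenic miRNA, had 37, 55 and 133 reads against 559, 92 and 23. miR-200c-3p, which is induced by oxidative stress, had 0, 0 and 450 against 253, 1 and 190. Their limma adjusted p-values were 0.608, 0.737 and 0.59.

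The 3′ untranslated region of the PRDX3 messenger was then searched for the seeds of the 4 families. The aim was to see which members it could pair with by sequence. The region has 777 bases in GENCODE v29 (chromosome 10, 119167703 to 119168479, minus strand). The searched letters were the reverse complement of bases 2 to 8, on the transcript strand only: AATGTGA for miR-23, ACTGTGA for miR-27, CTGAGCC for miR-24 and TACTTGA for miR-26. The region holds 1 match for miR-23 and 1 for miR-26, each followed by an A, and 0 for miR-27 and miR-24. The rest of the transcript, upstream of the region, holds 1 match for miR-27 and 0 for the other families. A further match to bases 2 to 7 of miR-23 starts at base 483 of the region, beside the full one at base 497, and the match for miR-26 starts at base 314. Both full matches are shown with their surroundings, in DNA letters of the transcript, with the match and the A that follows it in capitals.
miR-23 match, chr10:119167975-119167998, minus strand: tatgtgattgaagcaAATGTGAAt
miR-26 match, chr10:119168158-119168181, minus strand: cttctttcttagcctTACTTGAAt

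Of 11385 genes whose 3′ untranslated region is at least as long, 9.55% hold the miR-23 letters and 5.45% the miR-26 letters in their first 777 bases. For miR-27 and miR-24 the shares are 8.36% and 9.59%. Of the same regions 0.878% hold both the letters of miR-23 and those of miR-26. With the A that follows included, 4.33% hold the letters of miR-23 and 2.26% those of miR-26. A match describes the sequence and is not evidence of binding, and its absence says only that these letters are not in this window. The members whose seeds match the region are miR-23a-3p, miR-23b-3p, miR-26a-5p and miR-26b-5p. Together they counted 1, 0 and 27 reads in the siCTL libraries, of 245831 reads in all. In those of siPRDX3 they counted 1369, 10 and 170, of 398284. siCTL 3 exceeded siPRDX3 2, so the groups overlap.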

How the data were processed

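The authors deposited 1 table per library, with a log2 value for each mature miRNA entry. Bowtie2 and bedtools 2.25.0 appear, per the submitters' processing notes, without a role. The sources used here do not give build, annotation, scaling or the handling of multiply mapped reads. 2 to the power of a value, minus 1, lay on whole multiples of a step (25 scaled units in siCTL 1 to 2.97 in siPRDX3 1), and 100% of values up to 100 reads were whole within 0.1 read. Reads were values divided by the step, so abundant entries are approximate.

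The test was limma 3.58.1 (R 4.3.3, with a trend in the variance) on the log2 values as deposited, siPRDX3 minus siCTL, two-sided, with Benjamini-Hochberg adjustment at 0.05. It was run on 80 filtered entries and on all 686 with reads. A check on simulated counts built in no entries held by a single library, so it does not cover a spread like that of the members. Entries with no spread around the fit were left out of a fit. Intervals were computed with scipy 1.17.1. Named miRNAs are the 7 members, their opposite arms, seed relatives, fixed redox and marker lists, and the 3 tested entries closest to each member with at least 15 reads. Members and lists were chosen with earlier results of these data known. Alternatives changed the scaling, filter, pseudocount, model, replicate block and libraries.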

Additional observations from a re-analysis of the deposited data

How the results depend on the processing

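Counts of called miRNAs were 0 under library totals, all entries with reads, a pseudocount of 10, and without siCTL 1 and siCTL 2. limma-voom called 1, miR-1260b (adjusted p = 0.0465). Over all 686 entries it called 8, with miR-1260b, miR-1260a, miR-100-5p and miR-197-3p higher and miR-3156-5p, miR-5696, miR-4728-3p and miR-6775-3p, each with reads in siCTL 1 alone, lower. These were named after their values were seen. Leaving out 1 library at a time gave 0 to 20 calls, the 20 without siCTL 3 (19 of them higher in siPRDX3; 21 higher and 1 lower over all entries with reads), and no member was called in any alternative run. Same-numbered libraries correlated at −0.238, 0.177 and 0.14 in their deviations from the group means, so the numbers were not taken as pairs. With the replicate block 0 miRNAs were called (7 at an unadjusted p under 0.05, against 6 without it), and siCTL 2 alone among siCTL libraries correlated best with its own number. Of 75 alternative values of the members' log2 differences, 68 stayed within 1 SD with their sign, 2 moved further and 5 changed sign. The SD is that between libraries within groups, which is wide. For miR-23a-3p, 4.48 and the 0.91 without siCTL 1 and siCTL 2 count as alike. The replicate block leaves each difference unchanged by design. Leaving out libraries of a group in which a member is at 0 throughout does the same. This holds for miR-23b-3p and miR-26b-5p in siCTL and for miR-24-3p in siPRDX3. The 68 are therefore no measure of stability. A pseudocount of 10 kept every sign and gave 2.34 for miR-23b-3p (4.46 before), 0.93 for miR-26b-5p (2.64) and −0.84 for miR-24-3p (−1.87). The sign changes were those of miR-27a-3p (−4.11 to 1.27 with 1 library left out, above 0 without siCTL 3 or siPRDX3 2) and miR-26a-5p (−0.70 to 3.25, below 0 without siCTL 2 or siPRDX3 3, and −1.86 without siCTL 1 and siCTL 2). The difference of the members' summed share ran from 0.0637 to 0.428 percentage points with 1 library left out. With miR-4451 left out of the library totals it was 0.344, against 0.266 with it. No difference could be fitted for miR-24-3p without siCTL 3, where all remaining libraries were at 0. With 1 read worth 0.00249% of siCTL 1, a count of 0 there allows a share of up to 0.00747%.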
